A study of Mus musculus with 24 samples.

Results

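TRAV6 is a family of variable segments of the mouse T cell receptor alpha chain (TRA). Its members here were all retained TRA sequences whose V segment was named TRAV6-, TRAV6D- or TRAV6N-, without the segment that is shared with the delta chain, with no stop mark and at least 2 counts. They comprised 12 named segments and 5901 sequences of 55689. A clonotype is 1 CDR3 amino acid sequence with 1 V and 1 TRAJ segment, and the family held 4456 of 40033 clonotypes when each mouse was counted apart (11.1%), and 347979 of 4769624 counts (7.30%). The libraries came from whole tumors of 12 female BALB/c mice, 7 to 9 weeks old by the study's methods, each of which carried CT26.CL25 tumors in both flanks. CT26.CL25 is a mouse colon carcinoma line that carries beta-galactosidase. In the time-matched group (mice 6, 12 and 14) both tumors were taken on day 13. In the time-separated group (mice 4, 17 and 19) 1 tumor was removed by surgery and the other was taken 11 days later. The low-dose DAC mice (3, 11 and 20) and high-dose DAC mice (7, 10 and 16) had the same surgery, and from day 3 after it received 0.5 or 2 mg/kg decitabine, a DNA methyltransferase inhibitor, for 5 days, with the second tumor taken 4 days after the last dose. By the study's methods, surgery came with the analgesics carprofen and buprenorphine, and the time-matched mice had no surgery. Surgery, analgesics, tumor age and the time between tumors cannot be told apart in comparisons with the time-matched group. The labels number the tumors 1 and 2 without saying which was removed first, so no direction in time, and no comparison of a tumor before and after decitabine, was made.

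During T cell development in the thymus, 1 of many TRAV segments is joined to 1 of many TRAJ segments, and bases are lost and added at the junction. The junction lies in CDR3, the loop that mainly meets the peptide, while the V segment supplies the other 2 loops that mainly meet the MHC molecule. The same cell can recombine its alpha locus several times, starting with V and TRAJ segments that lie near each other and going on to more distant ones. The TRAV6 family is spread over the V region of the locus on chromosome 14, and part of that region is repeated, which gave rise to the copies named D and N. The labels give the cell type as colon cancer cells, whereas TRA transcripts are made by T cells, so all values below describe the T cells within the tumors.

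The segments differed from each other at few bases of CDR3. The first 14 bases of CDR3, as the consensus of the clonotypes of each segment, are shown with the bases that differ from TRAV6-6 in capitals, because they show how alike the segments were where CDR3 begins.
TRAV6-6: tgtgctctgggtga
TRAV6-5: tgtgctctgAgtga
TRAV6-4: tgtgctctggTtga
TRAV6-1: tgtgTtctgggtga
TRAV6-2: tgtgTtctgggtga
TRAV6-3: tgtgctAtgAgAga
TRAV6-5 and TRAV6-6 first differed at base 10 of CDR3, and 465 of 3444 clonotypes of these segments (13.5%) had lost the germline match before that base. TRAV6-1 and TRAV6-2 were identical over these 14 bases. Only 2.76% of the CDR3 and TRAJ combinations of a tumor (156 of 5647) were listed under more than 1 TRAV6 segment.

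TRAV6 ranked second of 27 TRAV families by mean share of clonotypes (11.3% ± 2.28, SD, n = 12 mice), after TRAV7 with 20.7% ± 5.13. Its share of counts ranged from 1.67% to 34.9% over the 24 tumors, with a median of 10.0%. In the time-matched mice, TRAV6 held 11.0% and 8.54% of the counts of tumors 1 and 2 of mouse 6, whereas mouse 12 had 2.42% and 1.68%, and mouse 14 had 4.04% and 3.59%. In the time-separated mice, mouse 4 had shares of 11.7% and 10.9%, mouse 17 had 7.79% and 5.46%, and mouse 19 had 11.9% and 15.8%. Mice 12 and 14 lay below all time-separated mice and mouse 6 lay among them, so that both groups overlapped. In the low-dose mice, mouse 3 had 12.0% and 6.83%, mouse 11 had 14.7% and 34.9%, and mouse 20 had 10.4% and 6.60%. In the high-dose mice, both tumors of mouse 7 had 10.0%, mouse 10 had 4.96% and 1.67%, and mouse 16 had 17.6% and 11.7%. Exact binomial 95% intervals were narrow, the widest being 9.65% to 10.4% in tumor 2 of mouse 7 with 26623 counts, and they cover counting error only. Fewer T cells with TRAV6 and less TRA RNA per such cell cannot be told apart in these bulk libraries.

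**Figure D1:**
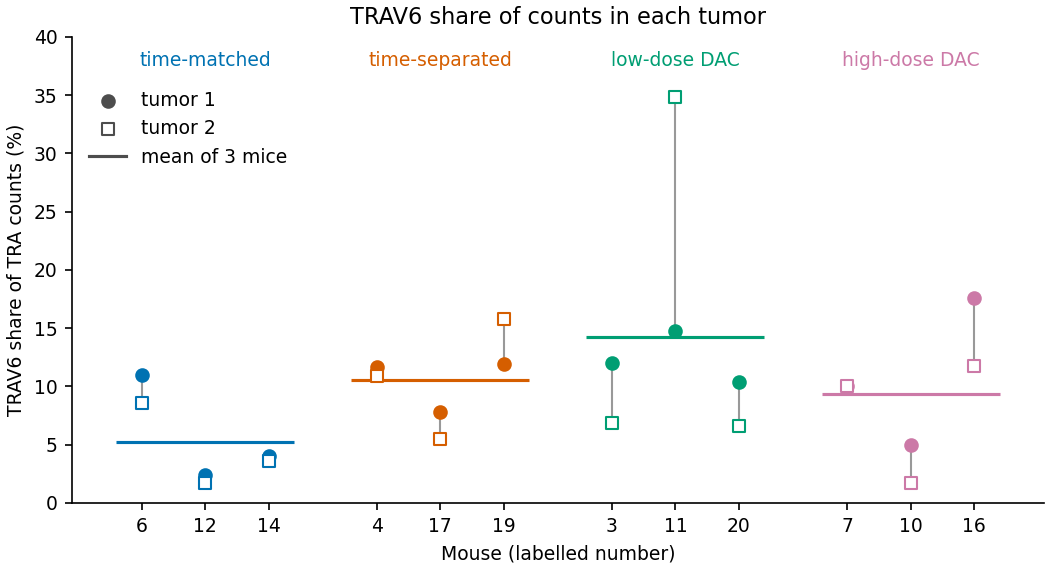
TRAV6 share of TRA counts (%) in tumor 1 (filled circles) and tumor 2 (open squares) of each of 12 mice, with a grey line joining the tumors of a mouse and a horizontal bar for the mean of the 3 mice of a group. Tumor 2 of mouse 11 reached 34.9%, and both tumors of mice 10, 12 and 14 lay below 5%.

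The mean share of counts per mouse was 5.21% ± 4.04 in the time-matched, 10.6% ± 3.65 in the time-separated, 14.2% ± 9.16 in the low-dose and 9.33% ± 5.70 in the high-dose group (SD, n = 3 mice each). Time-matched minus time-separated mice gave -5.37 percentage points (two-sided exact permutation test, p = 0.2), and time-matched mice minus the 9 mice whose tumors were taken apart in time gave -6.17 points (p = 0.145 by the same exact test). The values of the DAC mice average a tumor removed before decitabine was given and one taken after it. Minus the time-separated mean, the low-dose mean gave 3.66 and the high-dose mean -1.25 points (exact permutation p = 0.7 and 0.8). The direction of the low-dose difference rested on mouse 11, without which it was -1.62 points. The high-dose difference was 1.76 points without mouse 10 and 0.377 points without mouse 19. With the largest TRAV6 clonotype of each mouse left out, the low-dose difference was 1.37 and the high-dose difference -4.11 points. None of these differences exceeded the spread between mice after adjustment over the 12 group comparisons made (adjusted p from 0.58 to 0.8), and with 3 mice against 3 the exact test cannot go below 0.1.

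At equal depth, 26623 counts per tumor, TRAV6 accounted for 10.1% ± 2.52 of the clonotypes in the time-matched, 12.2% ± 1.60 in the time-separated, 13.3% ± 4.11 in the low-dose and 11.0% ± 2.15 in the high-dose group (SD, n = 3 mice). No group difference passed the exact permutation test (adjusted p from 0.6 to 0.8), and with 3 mice against 3 none could, since that test cannot go below 0.1. The share of clonotypes varied less than the share of counts, from 7.98% to 18.1% against 2.05% to 24.8% over the 12 mice. Without thinning, TRAV6 held a smaller share of counts than of clonotypes in 9 of 12 mice. Mice 16, 11 and 19 went the other way, and the mean difference was -1.48 percentage points (SD 3.49, exact sign-flip p = 0.168, adjusted p = 0.25 over 3 paired tests, n = 12 mice). It was -0.88 points with single-count sequences included, -2.29 with at least 5 counts and -2.32 with 1-base neighbours merged, as described next. Small clonotypes at 1 base from a large one made up much of these numbers. Adding sequences that differed by 1 base to a sequence with at least 20 times their counts, an alternative chosen after seeing the data, left 3107 of the 4456 TRAV6 clonotypes. Other segments lost clonotypes as well. Distinct clonotypes over all mice fell from 4022 to 2741 for TRAV6 and from 30951 to 19931 for other TRAV segments. With merging, the time-matched and time-separated TRAV6 shares of clonotypes differed by -0.80 points in place of -2.08. Without merging, the difference was -1.02 points when mouse 12 was left out and -3.47 points when mouse 6 was left out.

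Clonotypes of TRAV6-5 and TRAV6-6 made up 77.3% of the family's clonotypes and 74.6% of its counts. TRAV6-6 had 1991 clonotypes, TRAV6-5 had 1453, TRAV6-4 had 368, TRAV6-1 had 213 and TRAV6-2 had 160. Each of these segments, and TRAV6-3 with 123 clonotypes, was found in all 12 mice. TRAV6-6 held between 0.434% of counts in mouse 12 and 11.3% in mouse 11, with a median of 3.67% over mice. TRAV6-5 held between 0.631% in mouse 16 and 11.7% in mouse 11, with a median of 1.83%. TRAV6-4 and TRAV6-1 were low in most mice and high in 1. TRAV6-4 held 12.3% of counts in mouse 16, where 93.5% of its counts belonged to 1 clonotype, and a median of 0.216% over the 12 mice. TRAV6-1 held 3.51% in mouse 6, 90.9% of it in 1 clonotype, and a median of 0.196%. TRAV6-2 did not exceed 0.691%, reached in mouse 4, and TRAV6-3 did not exceed 0.930%, reached in mouse 11.

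**Figure D2:**
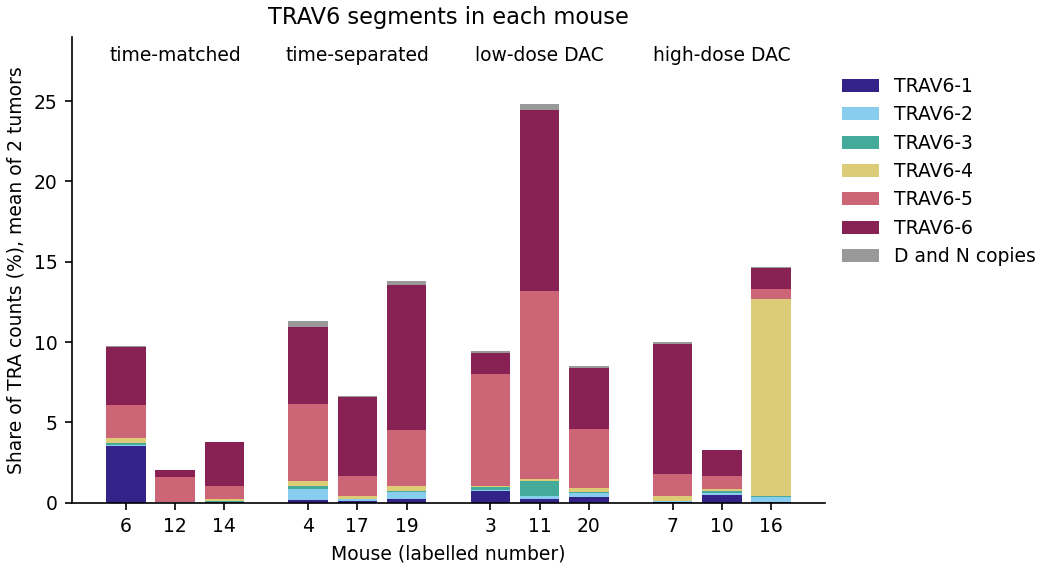
Share of TRA counts (%, mean of the 2 tumors) held by each TRAV6 segment in each of 12 mice, as stacked bars ordered by group. TRAV6-5 and TRAV6-6 fill most of each bar except that of mouse 16, where TRAV6-4 held 12.3%. In mouse 6, TRAV6-1 held 3.51%.

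The 6 copies named D or N together had 148 clonotypes (3.32%) and 1.06% of the family's counts, led by TRAV6D-4 with 72 clonotypes. The names D and N were more frequent where more of the V segment was read. Among clonotypes with at least 100 bases before CDR3, 48 of 107 (44.9%) were named for a D or N copy, against 101 of 4363 (2.31%) of those with fewer (a clonotype with both kinds of sequence counts in both), and the median was 142 bases for TRAV6D-7, 87 for TRAV6D-6 and 73 for TRAV6N-5 against 37 for TRAV6-5 and TRAV6-6. TRAV6D-4, TRAV6N-7 and TRAV6D-3 did not share this, with medians of 43, 41 and 28 bases. TRAV6D-7 and TRAV6N-7, with 17 and 18 clonotypes, share their number with the segment of the delta chain that was left out, and adding that segment gave 4549 in place of 4456 clonotypes.

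Clonotype numbers per mouse were compared between groups with edgeR's quasi-likelihood test over all TRAV segments with a mean of at least 5 clonotypes per mouse, 56 segments with 7 of TRAV6. No TRAV6 segment passed an adjusted p of 0.05 in any comparison, where 0% of all segments passed for time-matched, low-dose and high-dose against time-separated mice (0 of 56 each, and 5, 6 and 7 at an unadjusted p below 0.05) and 1.79% for high-dose against low-dose mice (1 of 56, TRAV9-2, named after its value was seen). DESeq2 also called no segment in the first 3 comparisons and 1 in the last. The lowest p-values of TRAV6 segments were in the comparison of high with low dose, where TRAV6-5 had a log2 fold change of -1.16 (SE 0.39, edgeR adjusted p = 0.17) and TRAV6-4 of 1.78 (SE 0.71, edgeR adjusted p = 0.23). Before scaling to the total of each mouse, TRAV6-5 had 99, 69 and 51 clonotypes in the high-dose mice 7, 10 and 16, and 127, 184 and 136 in the low-dose mice 3, 11 and 20. TRAV6-4 had 28, 25 and 109 clonotypes in the high-dose and 4, 23 and 31 in the low-dose mice, and without mouse 16 its log2 fold change was 0.40. In mouse 16, 47 further clonotypes with the same segments lay at 1 base from its largest TRAV6-4 clonotype. These numbers join both tumors of a mouse, of which 1 was removed before decitabine was given. The median log2 fold change of the 7 TRAV6 segments in this comparison was -0.52, beside -0.09 over all segments. As a whole family, TRAV6 differed by a log2 fold change of -0.26 (SE 0.26) between time-matched and time-separated mice, 0.10 (SE 0.26) for low dose and -0.12 (SE 0.26) for high dose against time-separated mice, and -0.22 (SE 0.26) for high against low dose. Each of these values lay within its SE of 0 and moved with single mice, the first from -0.47 without mouse 6 to -0.16 without mouse 14 and the last from -0.38 without mouse 7 to -0.03 without mouse 11. The low-dose value turned to -0.10 without mouse 11, and the high-dose value against time-separated mice to 0.0486 without mouse 10. The edgeR adjusted p ranged from 0.64 to 0.85, and of the 22 TRAV families 0% passed in each of these 4 comparisons, with 3, 1, 1 and 2 at an unadjusted p below 0.05.

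The segments differed in the TRAJ segments they had been joined to. TRAJ segments are numbered from the constant region, so that a high number lies near the V region, and the numbers fall along the locus in all 59 neighbouring pairs of the reference annotation. The mean TRAJ number of the clonotypes was 37.4 ± 3.56 for TRAV6-6 (SD, n = 12 mice), 33.1 ± 4.08 for TRAV6-5, 28.1 ± 5.91 for TRAV6-4, 26.8 ± 7.53 for TRAV6-3, 28.0 ± 5.42 for TRAV6-2 and 25.3 ± 7.28 for TRAV6-1. In the C57BL/6J reference annotation, TRAV6-6 lies nearest to TRAJ among these, followed by TRAV6-5, TRAV6-4 and TRAV6-3, with TRAV6-2 and TRAV6-1 at the far end. The order in BALB/c was not available from these data. TRAV6-5 and TRAV6-2 were below TRAV6-6 in 10 of 12 mice, and TRAV6-4, TRAV6-3 and TRAV6-1 in 11. After 1-base neighbours were added to their larger sequences, the means were 37.3 ± 2.19 and 32.5 ± 1.63 for TRAV6-6 and TRAV6-5, and TRAV6-5 and TRAV6-4 were each below TRAV6-6 in 12 of 12 mice, TRAV6-2 and TRAV6-1 in 11 and TRAV6-3 in 10. The 4 segments with the lowest means, between 25.3 and 28.1, differed from each other by less than their SD. These means are a description and were not tested.

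**Figure D3:**
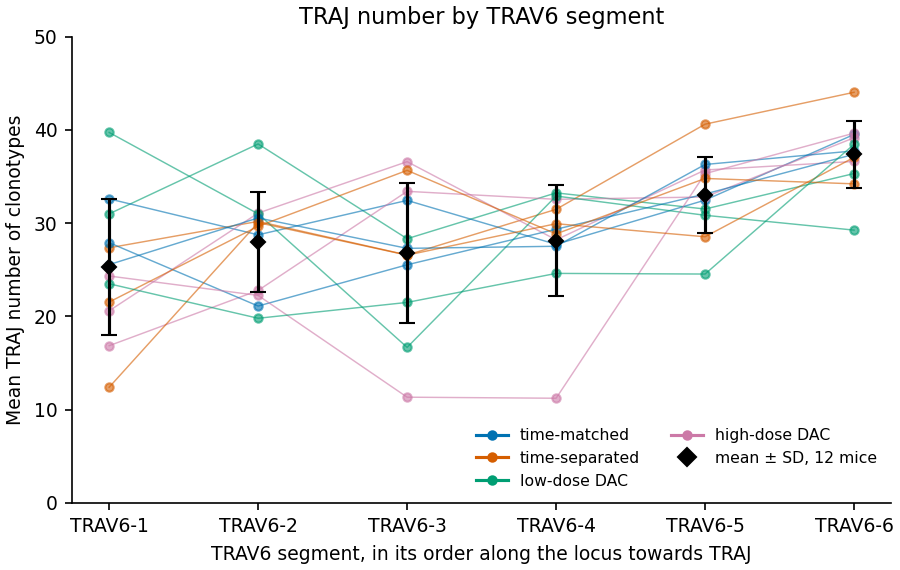
Mean TRAJ number of the clonotypes (unitless segment number, high numbers lying near the V region) for 6 TRAV6 segments ordered along the locus, with 1 line per mouse coloured by group and black diamonds with bars for the mean ± SD of 12 mice. TRAV6-6 had the highest mean, 37.4, and TRAV6-1 the lowest, 25.3. The line that drops to about 11 at TRAV6-4 is mouse 16.

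Compared with all other TRAV clonotypes of the same mouse, TRAV6 clonotypes showed no TRAJ segment that passed an adjusted p of 0.05 (edgeR with mouse as a block, 0 of 40, 0%, with 3 at an unadjusted p below 0.05; DESeq2 also called none). By clonotypes summed over the mice, the most used partners were TRAJ30 (265 TRAV6 clonotypes), TRAJ53 (254), TRAJ49 (218), TRAJ15 (187) and TRAJ17 (168). By mean share per mouse, TRAJ6 (4.07%) came before TRAJ15 (3.83%), and TRAJ31 (3.74%) was level with TRAJ17 (3.73%). TRAJ30 made up 5.57% ± 5.13 of TRAV6 and 6.42% ± 3.42 of other clonotypes, and TRAJ53 5.47% ± 3.54 and 3.72% ± 1.90 (SD, n = 12 mice). For TRAJ49 the shares were 4.71% ± 3.81 and 5.94% ± 1.52. TRAJ15 differed by a log2 fold change of 0.01 (SE 0.30). The strongest deficits were TRAJ12, with 1.56% ± 1.00 against 3.39% ± 1.23 (log2 fold change -1.16, SE 0.34, edgeR adjusted p = 0.061, lower in 11 of 12 mice), TRAJ40 (-0.83, SE 0.29, edgeR adjusted p = 0.13) and TRAJ13 (-0.91, SE 0.35, edgeR adjusted p = 0.18). On the higher side the smallest p-values belonged to TRAJ53 (0.51, SE 0.29), TRAJ6 (0.76, SE 0.53) and TRAJ17 (0.53, SE 0.43), each with an adjusted p of at least 0.51. Some TRAJ shares were high in single mice. TRAJ6 made up 33.3% of the TRAV6 clonotypes of mouse 16, TRAJ30 18.1% of those of mouse 11 and TRAJ38 20.1% of those of mouse 3. In each case this was the TRAJ of that mouse's largest TRAV6 clonotype, and what raised the share was not tested. With 1-base neighbours added to their larger sequences, the shares were 28.2%, 12.0% and 9.23%, and the log2 fold changes of the 3 deficits were -0.55 for TRAJ12, -0.33 for TRAJ40 and -0.39 for TRAJ13. TRAJ17, with 0.65, and TRAJ12 then had the smallest p-values (edgeR adjusted p = 0.33 for both). Without mouse 16, and without merging, the log2 fold change of TRAJ6 was 0.33.

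The CDR3 of TRAV6 clonotypes had a mean length of 13.8 residues (SD 0.174, n = 12 mice) against 13.6 (SD 0.118) for other TRAV clonotypes. The difference of 0.212 residues was positive in 10 of 12 mice (exact sign-flip p = 0.0107, adjusted p = 0.032 over 3 paired tests). The call was lost when mouse 4, 6, 7, 10, 12, 14, 17 or 19 was left out (exact sign-flip adjusted p from 0.053 to 0.064). Mice 3 and 16 had shorter TRAV6 CDR3s than others, by 0.031 and 0.304 residues. With 1-base neighbours added to their larger sequences the difference was 0.21 residues (exact sign-flip adjusted p = 0.0059). With nucleotide clonotypes the adjusted p was 0.070, and with single-count sequences included 0.10, at differences of 0.211 and 0.198 residues.

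The largest TRAV6 clonotype of each mouse used TRAV6-6 in 5 mice, TRAV6-5 in 4, TRAV6-1 in 2 and TRAV6-4 in 1, with 11 different TRAJ segments among the 12 mice. Their CDR3 nucleotide sequences are shown for 6 mice, those of mice 16, 11 and 6 for their high shares, those of mice 3 and 19 for the widest differences between the tumors and that of mouse 14 for its TRAJ frame. They are in lower case where they match the consensus start of the V segment or end of the TRAJ segment, and in capitals for the bases between.
Mouse 16, TRAV6-4/TRAJ6: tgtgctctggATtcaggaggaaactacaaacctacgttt
Mouse 11, TRAV6-5/TRAJ30: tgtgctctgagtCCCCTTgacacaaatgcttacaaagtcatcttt
Mouse 6, TRAV6-1/TRAJ34: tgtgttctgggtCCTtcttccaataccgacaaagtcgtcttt
Mouse 3, TRAV6-5/TRAJ38: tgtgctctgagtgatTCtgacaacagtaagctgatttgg
Mouse 19, TRAV6-6/TRAJ45: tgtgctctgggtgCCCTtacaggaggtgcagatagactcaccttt
Mouse 14, TRAV6-6/TRAJ44: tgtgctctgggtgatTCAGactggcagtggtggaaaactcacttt
Between 0 and 6 bases lay between the V and TRAJ matches in the 12 clonotypes, and 1 nucleotide sequence held 98.4% to 99.7% of the counts of each. Around each of them, 16 to 59 further clonotypes with the same segments were at 1 base from it. Of the 12 clonotypes, 11 were found in 1 mouse, although the nucleotide sequence of that of mouse 20 also had 4 counts in another mouse under another segment name. The clonotype of mouse 19 was also present in mice 7 and 10, at up to 0.0849% of counts.

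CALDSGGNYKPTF (TRAV6-4/TRAJ6) of mouse 16 held 13.9% of all TRA counts in tumor 1 (exact binomial 95% interval 13.7% to 14.0%) and 9.07% in tumor 2 (8.92% to 9.23%), where it was the second and the third largest TRA clonotype. It made up 78.9% and 77.4% of the TRAV6 counts of these tumors. The TRAV6-5/TRAJ30 clonotype of mouse 11, with 15 residues, held 5.58% and 14.4% and was the largest TRA clonotype of tumor 2. Without the largest TRAV6 clonotype, the family's share of counts was 3.61% in mouse 16 in place of 14.7%, and 16.8% in mouse 11 in place of 24.8%, so mouse 11 stayed the highest of the 12 mice. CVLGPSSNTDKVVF (TRAV6-1/TRAJ34) held 3.98% and 2.39% in mouse 6.

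The remaining time-matched mice had TRAV6 leaders of similar share in both tumors, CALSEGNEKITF (TRAV6-5/TRAJ48) with 0.795% and 0.440% in mouse 12 and a TRAV6-6/TRAJ44 clonotype with 1.78% and 1.49% in mouse 14. The CDR3 of the latter ended 1 base before the usual end of TRAJ44, so TRAJ44 was read in another frame than in most clonotypes, although the deposited list gave it no stop mark. Whether this clonotype can encode a working receptor chain was not tested. It held 44.2% and 41.5% of the TRAV6 counts of tumors 1 and 2 of mouse 14. Without it, the family's share of counts in this mouse was 2.21% in place of 3.81%. Of 81 TRAV6 clonotypes with TRAJ44, 29 had this shifted end, of which 25 were in mouse 14 and held 9882 of the 10112 counts of the 29. With 1-base neighbours added to their larger sequences, 8 of 51 such TRAV6 clonotypes had the shifted end, beside 23 of 264 other TRAV clonotypes with TRAJ44. Over all TRAJ segments and without merging, clonotypes in another TRAJ frame held 2.91% of TRAV6 counts and 0.0814% of other TRAV counts.

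In 4 of the 12 mice, the largest clonotype differed over 2-fold in share between the tumors, and none of these was time-matched. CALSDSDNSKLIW (TRAV6-5/TRAJ38) of mouse 3 held 5.57% in tumor 1 and 0.0412% in tumor 2 (23 of 55862 counts, exact binomial 95% interval 0.0261% to 0.0618%), a 135-fold difference. The TRAV6-6/TRAJ45 clonotype of mouse 19 held 0.350% and 4.93%, 14.1-fold apart, and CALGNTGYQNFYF (TRAV6-6/TRAJ49) of mouse 4 held 0.384% and 3.72%, 9.69-fold apart. In mouse 11 the shares were 2.58-fold apart. The other 5 mice with tumors taken apart in time had ratios from 1.23 in mouse 20 (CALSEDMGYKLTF, 2.01% and 1.64%) to 1.60 in mouse 17 (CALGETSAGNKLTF, 0.986% and 1.58%), within the range of 1.20 to 1.81 of the time-matched mice. In that range were also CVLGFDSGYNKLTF of mouse 10 with 0.514% and 0.324% and the TRAV6-6/TRAJ17 clonotype of mouse 7 with 3.18% and 2.38%.

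**Figure D4:**
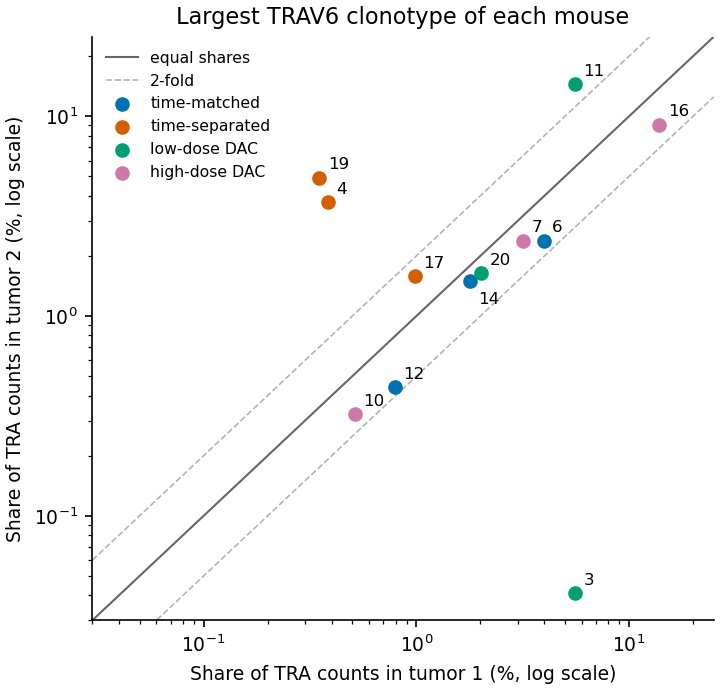
Share of TRA counts of the largest TRAV6 clonotype of each mouse in tumor 1 (x axis) and tumor 2 (y axis), in % on log scales, coloured by group and labelled with the mouse number. The solid line marks equal shares and dashed lines a 2-fold difference. The 3 time-matched mice lie between the dashed lines, and mice 3, 4, 11 and 19 lie outside.

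Among the 10 largest TRAV6 clonotypes of either tumor, 12 of 39 (30.8%) differed over 2-fold between the tumors in the time-matched group, 36 of 45 (80.0%) in the time-separated, 46 of 48 (95.8%) in the low-dose and 37 of 46 (80.4%) in the high-dose group. These clonotypes shared mice and were not tested. With counts below 3 set to 3, the median size of the log2 ratio per mouse was 0.70 to 0.85 in time-matched mice and 1.14 to 5.51 in time-separated mice, with no overlap. The highest of these, mouse 19, depends on that floor, since 9 of its 17 clonotypes were at 0 in 1 tumor. Of the same clonotypes, 37 of 39 time-matched and 32 of 45 time-separated ones were found in both tumors. Such finding depends on depth, which was 176171 to 846655 counts in the time-matched and 73240 to 183066 in the time-separated tumors.

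The Morisita-Horn index, which is 0 for repertoires without shared clonotypes and 1 for identical ones, was taken between the TRAV6 clonotypes of both tumors. It was 0.962, 0.951 and 0.983 in the time-matched mice 6, 12 and 14, against 0.352, 0.755 and 0.134 in the time-separated mice 4, 17 and 19. The groups did not overlap, and the difference of 0.552 had the smallest p that 3 mice against 3 allow (exact permutation p = 0.1, adjusted p = 0.58). In the low-dose mice 3, 11 and 20 the index was 0.168, 0.923 and 0.630, and in the high-dose mice 7, 10 and 16 it was 0.729, 0.424 and 0.997. Time-matched mice were 0.397 above the mean of 0.568 of the 9 other mice (exact permutation p = 0.0545, adjusted p = 0.58), with mouse 16 above all time-matched mice. With the largest TRAV6 clonotype of each mouse left out, this difference was 0.391 (exact permutation p = 0.0227, adjusted p = 0.27) and that from the time-separated mice 0.340 (p = 0.2 by the same exact test). The TRAV6 index was lower than that of the other TRAV clonotypes of the same mouse in 8 of 12 mice, with a mean difference of -0.0422 (SD 0.228, exact sign-flip p = 0.527, n = 12 mice). This difference was -0.0037 without mouse 10, -0.0064 without mouse 3 and -0.161 with the largest TRAV6 clonotype of each mouse left out (exact sign-flip p = 0.0659). Both differed most in mouse 10, with 0.424 for TRAV6 and 0.890 for others, and in mouse 3, with 0.168 and 0.605, while mouse 20 had 0.630 and 0.324.

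**Figure D5:**
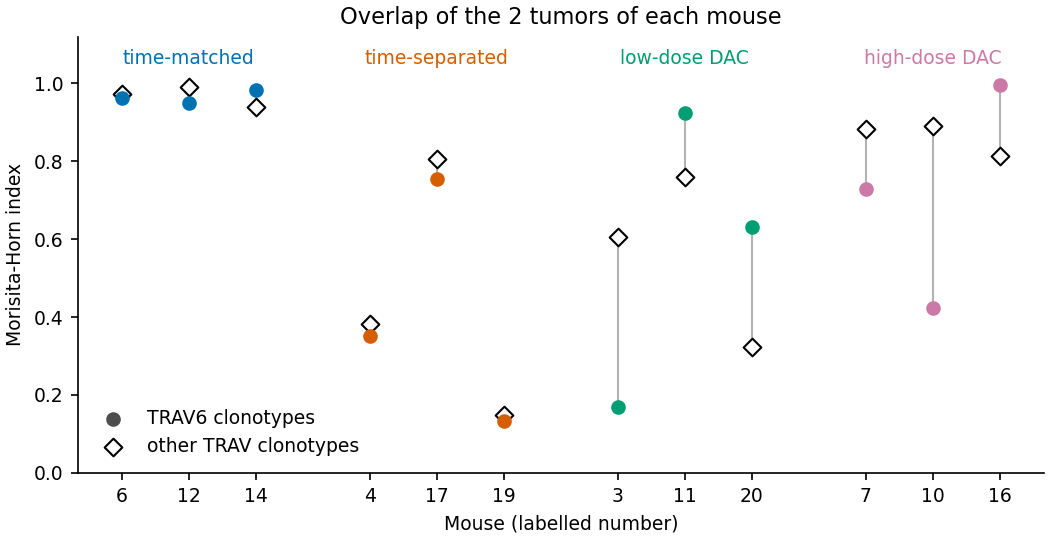
Morisita-Horn index (0 to 1) between the 2 tumors of each of 12 mice for TRAV6 clonotypes (filled circles) and other TRAV clonotypes (open diamonds), ordered by group. Both indices lie above 0.93 in the 3 time-matched mice. In the others, the TRAV6 index spreads from 0.134 to 0.997 and that of other TRAV clonotypes from 0.148 to 0.890.

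Most TRAV6 clonotypes were found in 1 mouse. Of 4022 distinct clonotypes, 3737 were in 1 mouse and 285 in 2 or more (7.09%), beside 2554 of 30951 other TRAV clonotypes (8.25%). With 1-base neighbours added to their larger sequences, the shares were 8.61% and 8.78%. In that version, 28 of 2741 TRAV6 clonotypes (1.02%) were in 4 or more mice, beside 185 of 19931 other TRAV clonotypes (0.928%). The 28 TRAV6 clonotypes had a median of 0 bases between the V and TRAJ matches, those of 2 to 3 mice 1 base and those of 1 mouse 3 bases. No such medians are given for other families. TRAV6-6 carried 22 of these 28 clonotypes (78.6%) and TRAV6-5 the other 6, whereas TRAV6-6 carried 38.7% of the clonotypes of 1 mouse. Clonotypes of 4 or more mice used 15 TRAJ segments, at most 3 with the same one.

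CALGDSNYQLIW (TRAV6-6/TRAJ33) was the most widely found, in 11 of 12 mice and 20 of 24 tumors, with 3142 counts. Its mean share per mouse ranged from 0.00627% in mouse 3 to 0.147% in mouse 16, with a median of 0.0861%, so it was small in every mouse. In mouse 4 it was not among the retained sequences, with 183066 and 73240 counts in the tumors, and sequences with 1 count had been left out. It was encoded by 3 nucleotide sequences, shown because they differ at 1 base and each recurred in more than 1 mouse.
In 11 mice: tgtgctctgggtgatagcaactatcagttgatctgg
In mice 11, 12 and 17: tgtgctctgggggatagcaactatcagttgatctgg
In mice 11 and 16: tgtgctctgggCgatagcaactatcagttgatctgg
The capital marks a base that neither germline match covers, and the first 2 sequences consist of germline matches throughout.

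The next most widely found clonotypes combined TRAV6-6 or TRAV6-5 with TRAJ53 or TRAJ57. A TRAV6-6/TRAJ53 clonotype of 16 residues was in 9 mice with a highest mean share of 0.323% in mouse 10, and one of 15 residues was in 8 mice, or 7 after 1-base neighbours were added to larger sequences, with 1.85% in mouse 7 and a median of 0.0129%. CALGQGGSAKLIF (TRAV6-6/TRAJ57) was in 9 mice, with mean shares from 0.00443% to 0.205%. Its counterpart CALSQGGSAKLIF (TRAV6-5/TRAJ57) was in 7 mice, with shares from 0.0025% to 0.0731%. The leading sequences of this pair are set side by side.
TRAV6-6/TRAJ57, in 6 mice: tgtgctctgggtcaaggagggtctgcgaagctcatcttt
TRAV6-5/TRAJ57, in 6 mice: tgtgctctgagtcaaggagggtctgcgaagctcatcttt
Both consist of germline matches throughout, and they differ at base 10, the base that separates the V segments.

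Across the 12 mice, the families whose share of clonotypes was most like that of TRAV6 were the TRAV6 segment shared with the delta chain (Spearman's rho 0.60), TRAV10 (0.51) and TRAV2 (0.47), among 22 families with a mean of at least 5 clonotypes per mouse. The shares of a mouse come from the same libraries and sum to 100%, and these values are a description only.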

How the data were processed

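TRA libraries of 24 tumors (SMART-Seq Mouse TCR with UMIs, 1 library per tumor) were analysed from the deposited lists of receptor sequences. Per the file headers and the study's methods, the authors called sequences with the Cogent NGS Immune Profiler and deposited a whole-number count per sequence. The methods call these counts reads and name a UMI-based step. Whether reads of 1 UMI were merged before counting, and which segment reference was used, is not given in the sources used here. The TRB lists were not used here.

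Sequences with a stop mark or 1 count were left out, which kept 26623 to 846655 counts per tumor. Of 34891 listed TRAV6 sequences, 13453 had a stop mark and 15537 others 1 count, and the retained 5901 held 79.8% of TRAV6 counts. The mouse was the replicate, so p-values measure the spread between mice. Shares of counts are means of both tumors. Clonotype shares and Morisita-Horn indices are means of 20 random draws at 26623 counts. Groups were compared by exact two-sided permutation tests, paired measures by exact sign flips, and p-values were adjusted by Benjamini-Hochberg. Clonotype numbers were tested with edgeR 4.0.16 (quasi-likelihood, total clonotypes as library size, tested on simulated data). DESeq2 1.42.0, TMM factors, other count minimums, no thinning and leaving out each mouse were alternatives. Counts of PCR products are not independent molecules.

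Consensus V starts and TRAJ ends were built base by base while at least 50% of sequences agreed. Segments were named in the text if found, with full values for the 5 with most clonotypes. TRAJ segments were named for the 5 highest numbers and the 3 smallest p-values in each direction. Clonotypes were named as the largest of each mouse and the 5 found in most mice. The members and lists were chosen with earlier results of these data known.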

Additional observations from a re-analysis of the deposited data

Results flagged for a closer look

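The TRAV6 share of counts in tumor 2 of mouse 11 (low-dose DAC), 34.9%, lay far from the other 5 tumors of its group, the nearest of which was tumor 1 of the same mouse with 14.7%. The gap was 0.712 of the range of the group, above the critical value of 0.625 for 6 tumors. It was the only one of 8 sets of 6 tumors (share of counts and of clonotypes in 4 groups) with such a gap, and chance gives about 1 in 20 sets, although the tumors of a mouse are not independent. At equal depth TRAV6 held 21.4% of the clonotypes of this tumor, against 14.7% in the next highest tumor of the group. The TRAV6-5/TRAJ30 clonotype of this mouse alone held 14.4% of the counts of tumor 2.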

How the results depend on the processing

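No group difference in the TRAV6 shares or in the Morisita-Horn index passed the adjusted threshold under any alternative run, and no TRAV6 segment was called by edgeR or DESeq2 under any. Leaving out 1 mouse turned the direction of low-dose against time-separated (shares of counts -1.62 to 6.54 percentage points, of clonotypes -1.24 to 2.38, family log2 fold change -0.10 to 0.23), of high-dose against time-separated (-3.91 to 1.76, -2.07 to 0.0471 and -0.28 to 0.0486) and of high-dose against low-dose mice for the shares (-7.78 to 0.375 and -3.57 to 0.0463). Mouse 11 or mouse 10 was the one left out, and for the share of counts of high-dose against time-separated mice also mouse 19. With 1-base neighbours merged, a setting chosen after seeing the data, the family log2 fold change of high-dose against time-separated mice was 0.06. TMM factors gave 0.29 for low-dose against time-separated and -0.47 for high-dose against low-dose mice.

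The share of counts minus the share of clonotypes passed the threshold at -4.50 points when the largest TRAV6 clonotype of each mouse was left out (exact sign-flip adjusted p = 0.0015), a setting that by construction lowers the TRAV6 counts. It ranged from -2.21 to -1.08 when 1 mouse was left out, and passed without mouse 11 (adjusted p = 0.029). The CDR3 length difference no longer passed with single-count sequences (0.198 residues) or nucleotide clonotypes (0.211), and ranged from 0.180 to 0.259 when 1 mouse was left out. It lost its call without mice 4, 6, 7, 10, 12, 14, 17 or 19, with an adjusted p of at most 0.064.

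The count of TRAV segments called for high-dose against low-dose mice was 2 without the filter on low numbers, 0 with at least 5 counts, 0 after thinning, 0 with 1-base neighbours merged, and 0 to 1 when 1 mouse was left out (0 without mouse 3, 4, 7, 11, 14, 16, 17 or 20). The corresponding count of families was 2 with summed counts and 0 to 1 without 1 mouse (1 without mouse 7 or 12). For TRAJ partners, the fit with no replicate block, in which the pairing of both columns of a mouse is ignored, called 2 TRAJ segments. Adding the DV segment gave 1, and leaving out 1 mouse 0 to 1 (1 without mouse 6 or 12). The log2 fold change of TRAJ15, 0.01, turned to -0.0757 with no replicate block, -0.00068 with at least 5 counts, -0.0187 with the DV segment added, -0.13 with 1-base neighbours merged, and -0.16 to 0.16 without 1 mouse. The cause of these changes was not tested.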
